A study of Mus musculus with 2 samples.

Results

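Weakly open promoters of protein-coding genes were examined in whole mouse embryos at embryonic day 10.5. They were chosen by peak strength, the whole-number score that the authors deposited with each DNase-seq peak and whose definition is not given in the sources used here. Open genes had a peak in both replicates no more than 1 kb from any of their annotated transcription start sites (TSSs). It was weakly open when its strongest such peak was under 50 in each replicate. Of 20807 protein-coding genes of GENCODE M21 on chromosomes 1 to 19, 14798 (71.1%) were open and 544 were weakly open, which is 3.68% of the open genes and 2.61% of all. The other 14254 open genes are called the stronger open genes here. A further 689 genes had a promoter peak in 1 replicate and 5320 had none.

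The study mapped open chromatin by DNase-seq, in which the enzyme DNase I cuts DNA where nucleosomes are displaced and the cut ends are sequenced. Its single group held 2 biological replicates of untreated, healthy embryos of the B6NCrl strain, with males and females pooled. No genetic change and no treatment is named in the labels, both replicates carry the same donor label, and the labels do not say whether the pools came from separate litters. With 1 group of 2 replicates, and members chosen by their strength, no test between conditions was possible and values are given for each replicate. Read numbers were not used here, and the sequencing depth of the 2 libraries is therefore unknown. A whole embryo mixes many cell types, and in such a sample a site open in few cells and a site slightly open in many cells cannot be told apart.

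A promoter is the stretch of DNA around a TSS where transcription factors and RNA polymerase assemble. Promoters rich in CpG dinucleotides, often called CpG islands, tend to lack stable nucleosomes and are open in most cell types, while CpG-poor promoters commonly belong to genes of specialised cells and open in the cells that use the gene. At this stage the kidney has only begun to form, lymphocytes have not matured, and the heart beats and red cells circulate.

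The strongest peaks of 7 weakly open genes from several tissues are shown to let the make-up of such sites be read directly. They overlapped between replicates, overlapped no annotated exon and held at least 1 of 28 short motifs searched on both strands. Each is the 150 bp peak of replicate 1 on the mm10 build, read 5′ to 3′ on the strand of its gene, with motif matches in capitals. Umod, uromodulin of the kidney tubule, lies at chr7:119479656-119479805 (minus strand), and its peak is outside the gene and 374 bp from a TSS. Slc7a9, an amino acid transporter of the proximal tubule, has its peak at chr7:35448176-35448325 (plus strand), outside the gene and 471 bp from a TSS. Cd2, a T cell adhesion molecule, is represented by an intronic site at chr3:101280596-101280745 (minus strand). Guca1a, which regulates guanylate cyclase in photoreceptors, has a site at chr17:47400616-47400765 (minus strand), and Trim10, a gene of red cell precursors, at chr17:36869396-36869545 (plus strand), both outside the gene and within 32 bp of a TSS. Star, which brings cholesterol into mitochondria for steroid synthesis, has a site 210 bp from a TSS and outside the gene at chr8:25806196-25806345 (plus strand). Dppa3, a gene of oocytes and early embryos, has an intronic site 843 bp from a TSS at chr6:122627596-122627745 (plus strand).
Umod: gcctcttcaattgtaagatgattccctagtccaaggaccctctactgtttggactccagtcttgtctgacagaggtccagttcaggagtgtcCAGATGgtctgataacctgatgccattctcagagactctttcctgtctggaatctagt
Slc7a9: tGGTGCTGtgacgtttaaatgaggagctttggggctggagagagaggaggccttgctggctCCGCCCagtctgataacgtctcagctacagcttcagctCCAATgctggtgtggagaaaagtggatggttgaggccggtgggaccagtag
Cd2: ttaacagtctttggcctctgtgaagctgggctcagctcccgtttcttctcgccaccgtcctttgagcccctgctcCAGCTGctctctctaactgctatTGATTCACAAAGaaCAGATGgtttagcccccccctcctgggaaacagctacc
Guca1a: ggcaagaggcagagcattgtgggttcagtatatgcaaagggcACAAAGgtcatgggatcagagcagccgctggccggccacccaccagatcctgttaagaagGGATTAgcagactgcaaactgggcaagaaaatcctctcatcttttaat
Trim10: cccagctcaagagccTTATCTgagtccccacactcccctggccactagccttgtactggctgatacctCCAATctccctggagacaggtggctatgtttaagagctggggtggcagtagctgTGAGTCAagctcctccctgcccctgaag
Star: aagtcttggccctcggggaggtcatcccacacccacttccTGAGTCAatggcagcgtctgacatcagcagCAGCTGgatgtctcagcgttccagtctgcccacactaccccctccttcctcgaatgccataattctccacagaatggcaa
Dppa3: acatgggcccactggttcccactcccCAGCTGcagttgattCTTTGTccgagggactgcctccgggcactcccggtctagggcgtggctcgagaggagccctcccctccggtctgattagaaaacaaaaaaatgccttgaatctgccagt

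The number of CpG dinucleotides in these 150 bp stretches ran from 0 in Umod and Trim10 to 6 in Dppa3. Umod held the E-box CATCTG, read as CAGATG on the strand shown, a form bound by proneural and related bHLH factors. Slc7a9 held the GC box GGGCGG, read as CCGCCC, together with CCAAT and with CAGCACC, which is part of the REST site and is read as GGTGCTG. In Cd2 the AP-1 motif TGANTCA and the SOX motif ACAAAG overlapped by 1 base, and both E-boxes CAGCTG and CATCTG lay beside them. Guca1a held GGATTA, the core bound by the photoreceptor factor CRX and its relatives, and the SOX motif. Trim10 held the GATA motif AGATAA, read as TTATCT, with CCAAT and an AP-1 motif. Star held an AP-1 motif and CAGCTG, and Dppa3 held CAGCTG and the SOX motif. A match describes the letters in the window and does not show that a factor was bound.

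The strength of the weakly open genes describes how they were chosen. Their median was 32 in replicate 1, with a range of 9 to 49, and 40 in replicate 2, with a range of 17 to 49. Stronger open genes had medians of 111 and 119. Among all peaks of chromosomes 1 to 19, promoters or not, the members had medians at the 30.0 and 30.4 percentile of peak strength. The limit of 50 helps to fix this low rank, since the median of all peaks was 41 in replicate 1 and 50 in replicate 2. The weakest by mean strength were C130026I21Rik (10 and 17 in replicates 1 and 2), Gm3252 (11 and 17) and the clustered protocadherin genes Pcdhb5 (9 and 19) and Pcdha9 (13 and 18). They were followed by the trypsin gene Try5 (13 and 19), the interferon-induced GTPase gene Iigp1 (13 and 21), the sperm membrane gene Adam3 (13 and 22) and Pcdhb19 (15 and 20). Just inside the limit stood 21 genes whose higher value was 49, among them A330070K13Rik (35 and 49), Abi3 (38 and 49) and Ceacam1 (49 and 46). Just outside it stood 32 genes whose higher value was 50, such as Adgrf5 (35 and 50), Alox15 (33 and 50) and C1qtnf3 (50 in both).

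**Figure D1:**
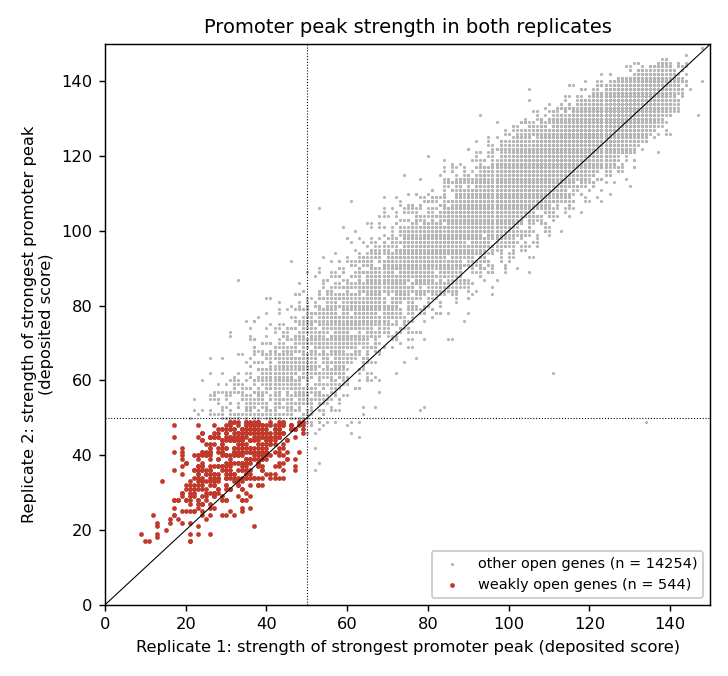
Strength of the strongest promoter peak of each open gene in replicate 1 (x axis) and replicate 2 (y axis), as the deposited score. Red points are the 544 weakly open genes, grey points the 14254 stronger ones, dotted lines mark 50 and the diagonal marks equal strength. Most red points lie above the diagonal, since 441 of 544 were higher in replicate 2.

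Strength in replicate 2 exceeded that in replicate 1 in 441 weakly open genes, was lower in 82 and equal in 21. On the log2 scale the median difference, replicate 2 minus replicate 1, was 0.28 (SD across genes 0.32), against 0.10 (SD 0.17) for the stronger open genes. The widest gaps were at Gm7102 (17 and 48), Rgs11 (17 and 45), Slc5a8 (17 and 41), Olfr145 (14 and 33) and Col7a1 (19 and 42). At Gm7102, Slc5a8 and Col7a1 the strongest peaks of the replicates did not overlap, so the values compare different sites. All peaks of replicate 2 as a whole also had the higher median strength, 50 against 41. The strongest peaks of the 2 replicates overlapped in 427 weakly open genes (78.5%) and in 91.2% of the stronger ones. In the others, the 2 values given for a gene come from different peaks. Such genes of the tissue lists include Acta2, Adam3, Cd247, Cryba1, Emcn, Ermap, Lor, Ly86, Myh7, Oxt, Selp, Slc22a6, Slc5a8 and Tnfrsf13c.

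Each replicate was also read at the genes chosen from the other one alone. Of 1429 genes that were under 50 in replicate 1, 544 (38.1%) were under 50 in replicate 2, 662 (46.3%) stood at 50 or more and 223 (15.6%) had no promoter peak there. None of the 1429 reached 100 in replicate 2, where their median among genes with a peak was 51 and their maximum 92. Genes at 50 or more in replicate 1 had a median of 120 in replicate 2, and 0.154% of them fell under 50. In the reverse direction, 943 genes were under 50 in replicate 2, of which 378 (40.1%) had no peak in replicate 1 and 21 (2.23%) stood at 50 or more. The single gene among the 943 at 100 or more in replicate 1 was Slc26a8, an anion transporter of sperm, which was strong in both embryo pools. Its peak of strength 134 lay 983 bp from the TSS in replicate 1, and the peak of strength 133 in replicate 2 lay 1003 bp away, just past the 1 kb window.

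The tissue question was asked with 43 lists of 971 marker genes, of which 965 matched the annotation. Genes of late or adult tissues were weakly open in 52 of 350 open cases (14.9%), genes of embryonic tissues in 13 of 145 (8.97%) and widely used genes in 0 of 56, beside 3.68% of all open genes. Genes of a single list shared tissue and often promoter type, so these shares are descriptions. The embryonic class held the trophoblast, yolk sac, erythroid, endothelium, neural progenitor, neural crest, somite, early heart and limb bud lists. All its 13 weakly open genes came from the trophoblast, yolk sac, erythroid and endothelium lists. Cardiomyocyte, smooth muscle and macrophage lists were classed as late or adult, and Cubn counted in both classes. The classes are therefore not a split by use at this stage. Kidney nephron, T and NK cell, endothelium, cardiomyocyte and red cell lists held the most weakly open genes. Lists of neural progenitor (0 of 26 open genes), mature neuron (0 of 38), glia (0 of 17), neural crest (0 of 17), somite (0 of 18), limb bud (0 of 18) and early heart genes (0 of 13) held none. Over the alternative rules for choosing members, the shares of these lists reached at most 11.1%, in the limb bud list. Ribosomal protein (0 of 29) and general housekeeping genes (0 of 27) held none either. With 3.68% of all open genes weakly open, a list of 13 to 38 open genes may hold none by its size alone. No single 0 therefore sets its list apart from open genes at large.

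**Figure D2:**
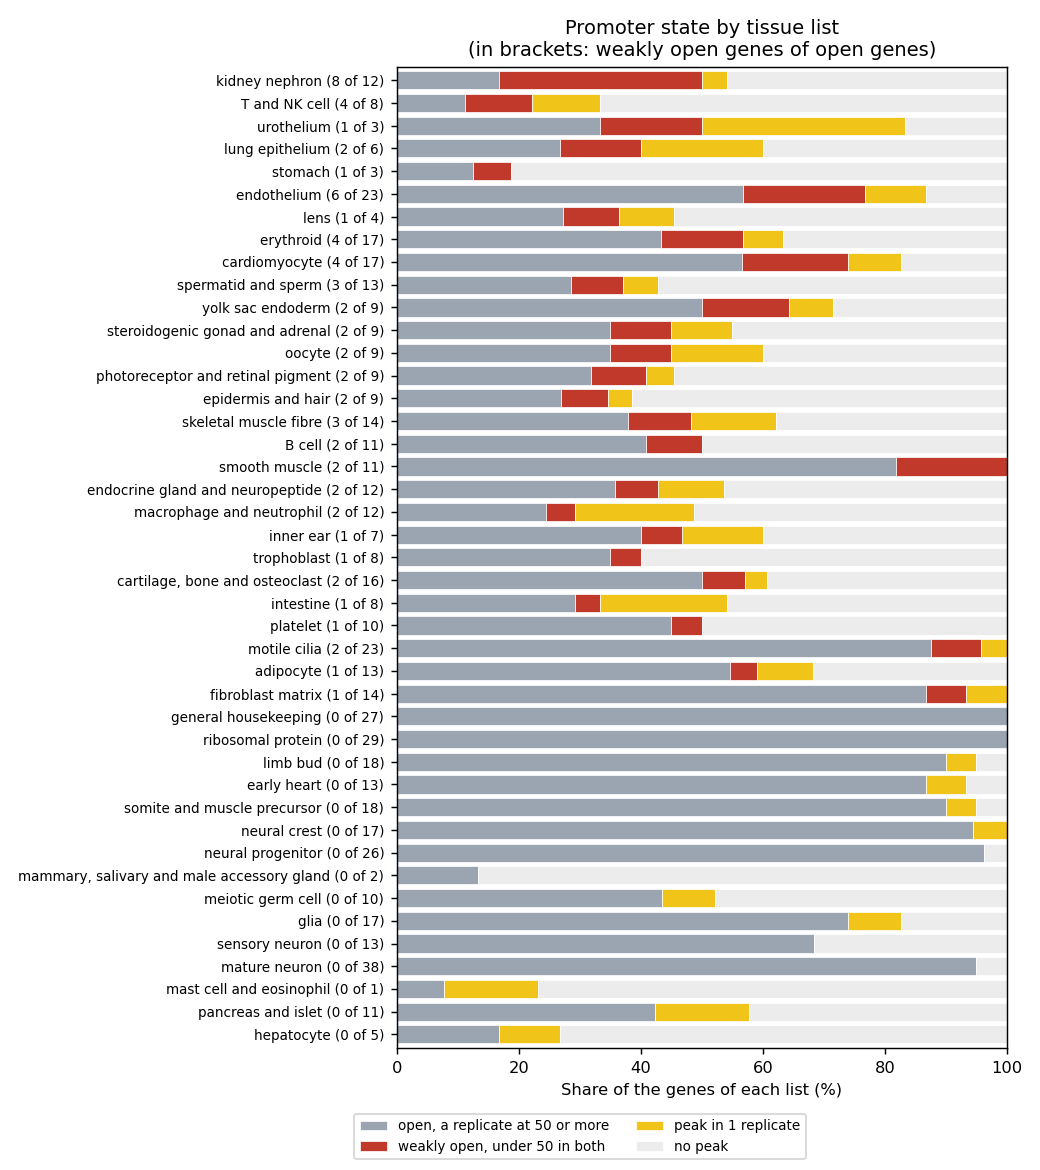
Share of the genes of each tissue list (x axis, %) by promoter state, with the numbers of weakly open and of open genes in brackets. Red marks weakly open genes, which make up 8 of 12 open kidney nephron genes at the top and 0 of 5 open hepatocyte genes at the bottom.

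Kidney nephron genes had the highest weak share, 8 of 12 open genes (66.7%), while 11 of the 24 listed genes had no peak. Umod had strengths of 23 and 26 in replicates 1 and 2, low in both. The proximal tubule transporter genes were Slc22a6, an organic anion carrier, at 30 and 34, Slc5a2, the glucose carrier of the early tubule, at 34 and 38, Slc5a8, a monocarboxylate carrier, at 17 and 41, and Slc7a9 at 39 and 47. Slc5a8 was the lowest of the list in replicate 1 but not in replicate 2. Cubn, the receptor that takes up filtered proteins, had 30 and 42. Pdzk1, a scaffold for tubule transporters, had 28 and 34 at a peak it shared in replicate 1 with the neighbouring immune gene Cd160, so that site cannot be given to 1 of the 2 genes. The strongest peaks of these 8 genes lay a median of 200.5 bp from a TSS in replicate 1 and 258 bp in replicate 2, and 1 covered a TSS in replicate 1. Over the alternative rules for choosing members the weak share of this list ran from 33.3% to 75%.

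Blood and immune genes formed another set. In the T and NK cell list 4 of 8 open genes (50%) were weakly open: Cd247, the zeta chain of the T cell receptor complex (47 and 39), Zap70, the kinase it recruits (45 and 39), Cd2 (39 and 48) and Ifng, interferon gamma (31 and 44). None of these peaks covered a TSS in either replicate, and the Ifng peak lay 969 bp away. Each of the 4 exceeded 40 in a replicate, and the share ran from 0 under a limit of 40 to 66.7% over the alternative rules. The B cell list held Cd79b, a B cell receptor subunit (31 and 48), and Tnfrsf13c, the BAFF receptor (30 and 46), among 11 open genes. Among macrophage and neutrophil genes 2 of 12 were weakly open, Csf1r, the receptor for macrophage colony-stimulating factor (17 and 28), and Ly86 (27 and 30). The platelet list held Selp, P-selectin (23 and 28), and no mast cell gene was weakly open (0 of 1).

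Red cell and vessel genes are used by cells already present at this stage, and they too had members. Erythroid members numbered 4 of 17 open genes (23.5%): Slc4a1, the anion exchanger of the red cell membrane (29 and 28), Epb42, a protein of the membrane skeleton (23 and 36), Ermap, a blood group antigen (34 and 44), and Trim10 (36 and 26). Their share ran from 17.6% to 31.6% over the alternative rules. Endothelial members numbered 6 of 23 (26.1%): the receptor gene Tie1 (34 and 40), Emcn, endomucin (44 and 36), Robo4, a vessel guidance receptor (35 and 47), Lyve1, a receptor for hyaluronan (26 and 42), Stab1 (29 and 42) and the adhesion molecule gene Icam2 (38 and 37). All 6 endothelial peaks covered a TSS in replicate 1 and 5 did in replicate 2, whereas 30.7% and 32.7% of all weakly open genes did. The endothelial share ran from 4.35% to 56.5% over the alternative rules.

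Muscle genes were members in 3 lists. The cardiomyocyte list held 4 of 17 (23.5%): Actc1, cardiac actin (35 and 47), Nppa, atrial natriuretic peptide (20 and 28), Casq2, the calcium store protein calsequestrin (39 and 43), and Kcnq1, a potassium channel of repolarisation (38 and 45). Nppa was the lowest of the 4 in both replicates. The cardiomyocyte share ran from 5.88% to 47.1% over the alternative rules, and was 44.4% without replicate 2. In the skeletal muscle list Myh7, slow myosin (30 and 40), Mybpc2 (37 and 48) and Neb, nebulin (29 and 36), were members among 14 open genes. Smooth muscle contributed Acta2 (28 and 47) and Actg2 (25 and 36), its actin isoforms, among 11 open genes, and no listed gene of that tissue lacked a peak.

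Epithelial and gland genes gave 1 or 2 members a list. They included the surfactant gene Sftpb (33 and 38) and the phosphate carrier gene Slc34a2 (33 and 41) of lung, Lor, loricrin of the cornified skin (16 and 23), the skin lipid transporter gene Abca12 (43 and 42) and the bladder gene Upk1b (32 and 46). From gut and stomach came Krt20 (38 and 44) and Capn8 (39 and 46), and from motile cilia the axonemal genes Dnah5 (47 in both) and Spag17 (35 in both). Hormone genes were represented by Oxt, oxytocin (33 and 41), Tg, thyroglobulin (49 in both), Star (47 and 37) and Mc2r, the corticotropin receptor of the adrenal (39 and 41). Lists of the hepatocyte (0 of 5) and of the pancreas and islet (0 of 11) held no weakly open gene, and 22 of the 30 hepatocyte genes had no peak at all. With so few open genes these shares were unstable, reaching 33.3% for the hepatocyte and 23.1% for the pancreas and islet over the alternative rules.

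Connective tissue gave Ihh, the signal of growth plate cartilage (29 and 43), Ocstamp, a gene of osteoclast fusion (32 and 44), Dpt, dermatopontin (46 and 48), and Aqp7, the glycerol channel of fat (32 and 38). Among sense organs were Guca1a (43 and 41) of photoreceptors, the lens crystallin gene Cryba1 (27 and 35) and Otoa of the inner ear (41 and 44). Germ cell lists held 3 of 13 open spermatid genes, Akap3 (25 and 35), Crisp2 (37 and 46) and Adam3, and 2 of 9 oocyte genes, Padi6 (41 and 35) and Dppa3 (30 and 37), but 0 of 10 meiotic genes. The meiotic share reached 30% over the alternative rules. Outside the embryo proper, the trophoblast gene Psg19 (23 and 39) was a member, as were Soat2, a cholesterol esterifying enzyme (46 and 48), and Cubn in the yolk sac list.

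**Figure D3:**
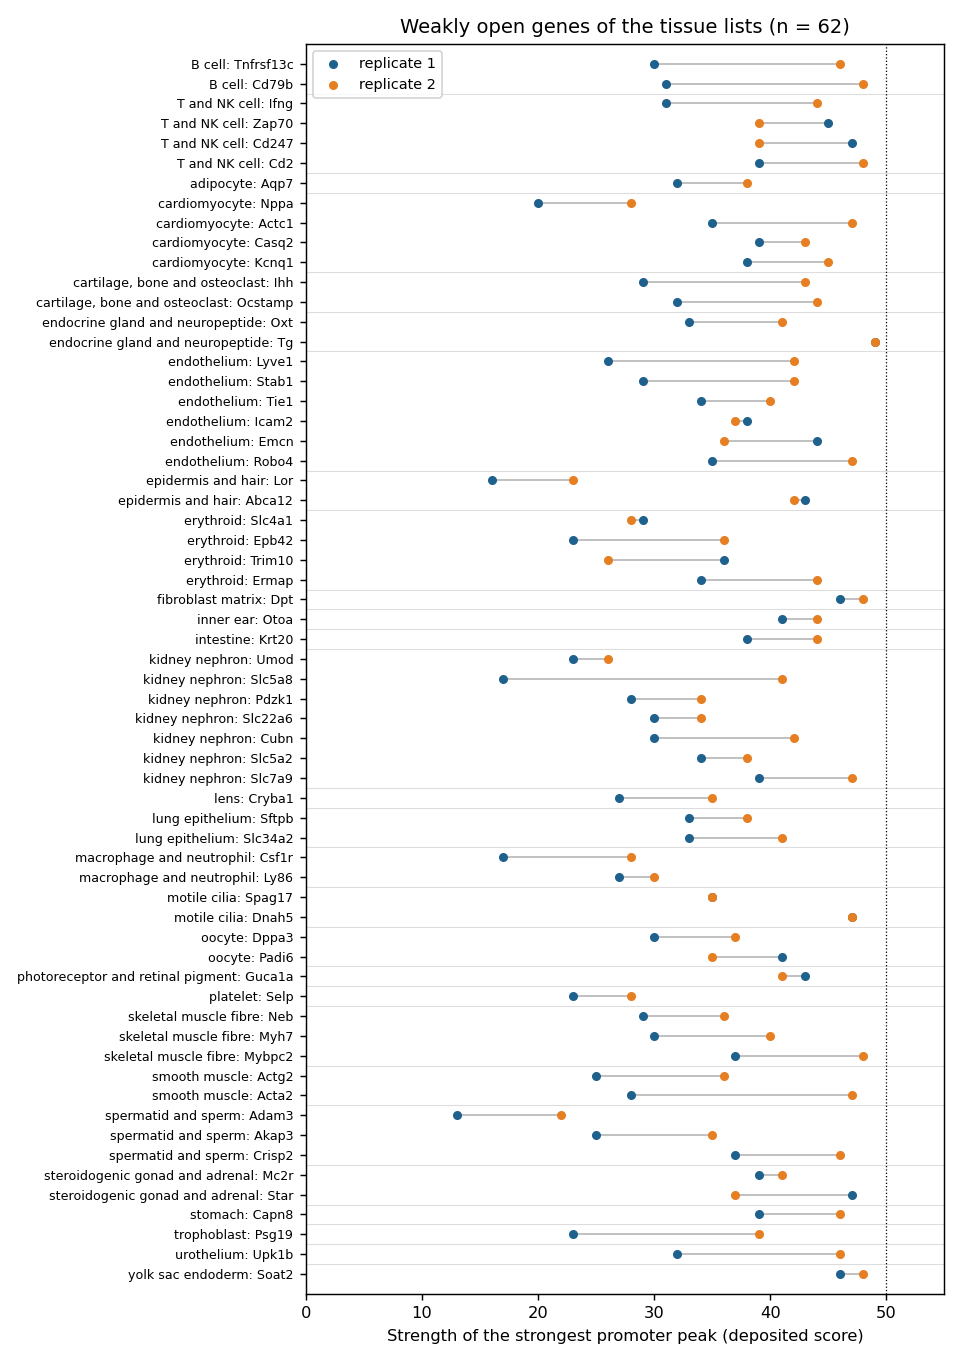
Strength of the strongest promoter peak (x axis, deposited score) of 62 weakly open genes of the tissue lists, blue for replicate 1 and orange for replicate 2, grouped by list. All points lie left of the dotted line at 50 by choice, and the lowest are Adam3 (13 and 22) and Lor (16 and 23).

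A fuller view came from giving the members themselves a tissue by textbook knowledge, after they were known. This was possible for 258 (47.4%), and with olfactory receptors and clustered protocadherins it covered 299, leaving 245 without an assignment. White blood cells came first with 42 members, then liver and plasma proteins with 28, skin, hair and stratified epithelium with 22, muscle and heart with 21, germ cells and pluripotency with 20, eye and ear with 19, neurons, neuropeptides and glia with 19, and kidney and urinary tract with 18. Gut, stomach and pancreas had 13, cartilage, bone and connective tissue 12, interferon-induced genes 12, endothelium 8 and red cells and platelets 8. Because the stronger open genes were not sorted the same way, these counts show how the members divide and not whether a tissue is over-represented.

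The white blood cell set reached from the toll-like receptor genes Tlr1 (23 and 48), Tlr4 (34 and 46) and Tlr6 (21 and 33) to Ciita, the regulator of class II antigen presentation (24 and 34). Psmb11, the thymus-specific proteasome subunit (47 in both), was also counted in it, although it is a gene of the thymic epithelium and not of white blood cells. Liver genes outside the hepatocyte list included Crp, C-reactive protein (31 and 25), Agt, angiotensinogen (43 and 38), Pklr, liver and red cell pyruvate kinase (45 and 41), and Fgf21, a fasting hormone (38 and 40). The Fgf21 peak lay 986 bp from its TSS. In replicate 2 it was also the strongest peak of the neighbouring gene Fut1, 664 bp from a TSS of that gene, so it cannot be given to Fgf21 alone. Skin members comprised the keratin genes Krt9 (32 and 47) and Krt39 (29 and 24), the plakophilin genes Pkp1 (42 and 37) and Pkp3 (38 and 49) and the anchoring fibril collagen gene Col7a1. Interferon-induced members, such as Iigp1, Ifi44l (17 and 24) and Mx1 (42 and 47), had the lowest median CpG ratio of the sets with 10 or more members, 0.133, and a median of 2 distal peaks within 50 kb.

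Neuron and glia members differed in their CpG content, with a median ratio of 0.480 against 0.264 over all weakly open genes. They included Gjd2, a gap junction protein of neurons (40 and 41), Chd5, a neural chromatin remodeller (43 and 45), and Doc2b, a calcium sensor of vesicle release (34 and 43). Peptide and receptor genes were Nmu, neuromedin U (31 and 47), Pnoc, nociceptin (40 and 35), Rln3, relaxin 3 (35 and 43), and Trhr, the receptor for thyrotropin-releasing hormone (42 and 34). In the eye and ear set stood Opn4, melanopsin (40 and 42), Grm6, the glutamate receptor of ON bipolar cells (34 and 47), and Ptprq of hair bundles (27 and 32).

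Gene families differed in promoter state. Olfactory receptors, each used in few sensory neurons of the nose, had 1065 of 1128 genes without a peak, and 21 of the 30 open ones were weakly open, a share that ran from 53.3% to 88.4% under the alternative rules. The lowest by mean strength were Olfr527 (23 and 19), Olfr324 (23 and 21), Olfr1362 (26 and 19) and Olfr20 (21 and 25). Clustered protocadherins, whose alternative promoters give single neurons distinct surface labels, were weakly open in 20 of 36 open cases (55.6%, and 36.0% to 73.7% over the alternative rules), with Pcdhb5 the lowest by mean strength and Pcdhga4 the highest (41 and 44). They made the only run of 4 neighbouring member genes, Pcdha9 (13 and 18), 2 entries named Pcdha11 (17 and 26, 16 and 22) and Pcdha12 (19 and 30), on chromosome 18 between 36997880 and 37187657. That chromosome had 35 members among 417 open genes (8.39%), of which 20 were clustered protocadherins. Whether reads could be placed uniquely in families of near-identical copies was not examined.

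Among small families, the late cornified envelope and small proline-rich genes of skin were weakly open in 2 of 2 open cases, Lce1g (26 and 36) and Sprr2k (31 and 34). Keratin-associated proteins of hair had 3 of 4, led from below by Krtap17-1 (27 and 30), and beta-defensins, antimicrobial peptides of epithelia, had 2 of 4, Defb11 (37 and 21) and Defb36 (46 and 48). Serpins had 5 of 15, with Serpina11 at 20 and 32 and Serpina3f at 34 and 33, and C-type lectins 4 of 11, with Clec3a at 24 and 33. Keratins had 3 of 12, a share of 25% that ran from 8.33% to 78.6% over the alternative rules, the highest without replicate 2. The UDP-glucuronosyltransferase genes Ugt1a1 (45 and 44), Ugt1a6a (24 and 41) and Ugt1a9 (34 and 43), enzymes that conjugate bilirubin and drugs, were 3 of 4 open genes of their family, and 0 under a limit of 40. Solute carriers had 19 weakly open of 268 open genes (7.09%, and 2.99% to 19.12% over the alternative rules), the lowest by mean strength being the zinc transporter gene Slc39a4 (20 and 25). Zinc finger Zfp genes had 5 of 338 (1.48%), of which Zfp934 and Zfp935 shared 1 peak (26 and 45). Cytochrome P450 genes had none of 29 by the rule used here, but their weak share was 16.7% to 18.9% when 1 replicate was left out. Hox genes (0 of 28), replication-dependent histones (0 of 57) and cytosolic (0 of 75) and mitochondrial ribosomal proteins (0 of 75) had none, beside 3.68% of all open genes.

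The weakly open promoters were poor in CpG. The ratio of observed to expected CpG, taken 500 bp to each side of the 5′-most TSS and equal to 1 when CpG is as frequent as its bases would give, had a median of 0.264 with an interquartile range of 0.173 to 0.381. In the stronger open genes it was 0.705 with a range of 0.530 to 0.828, and in genes with no peak 0.150. Open genes at 50 to 99 in both replicates lay between, at 0.543. A ratio under 0.5 was held by 87.3% of weakly open genes and 22.7% of the stronger ones. Read the other way, 475 of 3704 CpG-poor open genes (12.8%) and 69 of 11094 CpG-rich ones (0.622%) were weakly open. Along classes of mean strength the median ratio was 0.291 under 50, 0.495 from 50 to 75, 0.602 from 75 to 100, and 0.725 and 0.767 in the classes above.

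**Figure D4:**
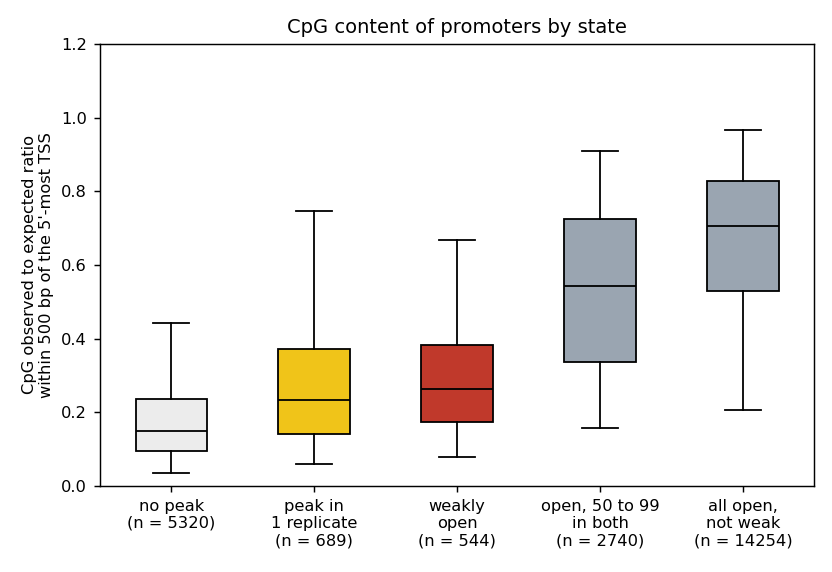
Ratio of observed to expected CpG, 500 bp to each side of the 5′-most TSS (y axis), by promoter state, with boxes for the quartiles, lines for the medians and whiskers from the 5th to the 95th percentile over genes. The median of the weakly open genes, 0.264, lies between those of genes with no peak, 0.150, and of genes at 50 to 99 in both replicates, 0.543.

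Among open genes with a CpG ratio under 0.5, the weak shares of late and of embryonic genes lay closer together than the 14.9% and 8.97% over all their open genes. Late or adult genes were weakly open in 50 of 216 such cases (23.1%) and embryonic genes in 12 of 56 (21.4%), beside 12.8% of all CpG-poor open genes. Among single lists of CpG-poor genes, kidney nephron genes reached 7 of 8, T and NK cell genes 4 of 6 and endothelial genes 6 of 15, while mature neuron genes stayed at 0 of 17 and glial genes at 0 of 8. The 69 CpG-rich members held 12 clustered protocadherins, 12 genes with predicted or clone names, 8 of these on chromosome 14, and 45 others such as the testis gene Rbmxl2 (32 and 35), Marveld2 of tricellular junctions, Kcnj12, an inward rectifier channel (37 and 48), Chd5, Ihh and Slc5a8.

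The strongest peaks of weakly open genes often lay off the TSS. They covered a TSS of the gene in 30.7% of cases in replicate 1 and 32.7% in replicate 2, against 56.0% and 53.9% in the stronger open genes. Weakly open genes had a median of 2 annotated TSSs and the stronger ones 4, and the part of TSS number in these positions was not tested. The median distance to the nearest TSS of the gene was 93.5 bp and 104.5 bp, against 0 in the stronger genes, and 23.3% lay over 500 bp away against 6.90%. Of the 377 peaks off the TSS in replicate 1, 217 (57.6%) lay upstream, against 73.5% among stronger open genes. For their location, replicate 1 peaks over a TSS of any gene were set apart first, 178 of the 544 (32.7%, against 61.5%). Exons were then assigned before introns. Of the 544 peaks, 105 (19.3%, against 7.77%) were placed in introns and 50 (9.19%, against 3.56%) in coding exons. The larger TSS share of the stronger open genes helps to fix these last contrasts. A wider window of 2500 bp left 438 of the 544 genes under 50 in both replicates, while 106 then had a peak at 50 or more in a replicate, 18 of them at 100 or more.

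**Figure D5:**
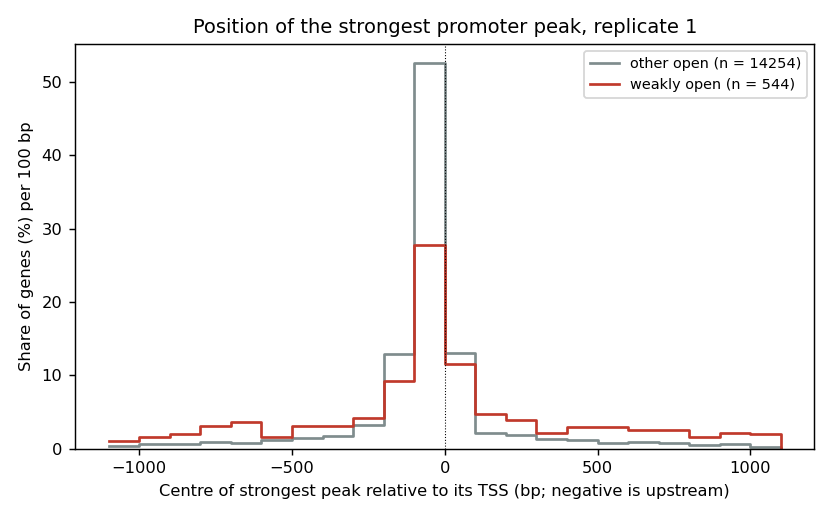
Position of the centre of the strongest promoter peak relative to its TSS in replicate 1 (x axis, bp, upstream negative), as the share of genes per 100 bp (y axis, %). The red line for 544 weakly open genes is lower at the TSS and higher in the outer flanks than the grey line for 14254 stronger open genes.

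These sites were small and mostly isolated. In the 1 kb window the peak stood alone in 69.9% of weakly open genes in replicate 1 and 61.6% in replicate 2, against 16.3% and 11.0% of stronger ones. The stretch searched grows with the number of TSSs of a gene, whose part in this contrast was not tested. Every one overlapped a hotspot, an accessible region called by the authors, as did all stronger open sites. Some hotspots at weak sites were narrower than the peak itself. The median hotspot width was 196 bp and 227 bp, against 834 bp and 1485 bp. Hotspots at the smallest deposited q-value overlapped 8.27% and 14.5% of the weak sites, against 92.9% and 96.5%. Hotspots were called from the same libraries as the peaks, so these contrasts are not independent of the low strength used to choose the members. Another protein-coding gene's TSS lay nearby in 25 cases (4.60%, against 18.8%).

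Stronger open sites were often found farther out. A median of 5 distal peaks, over 1 kb from any TSS and present in both replicates, lay within 50 kb of the weakly open genes, against 6 for stronger open genes and 2 for genes with no peak. In 452 of the 544 (83.1%) at least 1 of these exceeded the promoter peak, against 23.8% of stronger open genes, a contrast that the low promoter strength used to choose the members helps to fix. A distal peak of mean strength 100 or more stood near 96 members (17.6%, against 28.0%).

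Short motifs were counted in the 538 distinct strongest peaks of replicate 1 and in the 12988 peaks of the stronger open genes. Motifs of CpG-rich promoters were less frequent in weak sites, with the GC box GGGCGG in 86 of the 538 peaks against 53.9%, CCAAT in 17.7% against 29.9% and the ETS motif CCGGAAGT in 0.186% against 5.91%. In the 2687 replicate 1 peaks of open genes at 50 to 99 in both replicates, these 3 motifs stood in 42.4%, 16.4% and 1.00%. CCAAT was thus no more frequent there than in weak sites. The motif of NRF1 was found in 0 of 538 weak peaks of replicate 1, and in 0.186% of those of replicate 2. More frequent in weak sites were the E-boxes CATCTG, in 17.1% against 5.61%, and CAGCTG, in 16.5% against 9.10%, the SOX motif ACAAAG, in 13.4% against 6.07%, and the GATA motif AGATAA, in 5.95% against 1.52%. At 50 to 99 in both replicates CATCTG stood in 8.26%, CAGCTG in 13.7%, the SOX motif in 7.03% and the GATA motif in 2.01%. The AP-1 motif TGANTCA stood in 5.02% against 1.97%, the RUNX motif TGTGGTT in 4.09% against 1.17%, the CRX motif GGATTA in 5.02% against 1.90% and the homeodomain motif TAATTA, which can also lie inside a match of the HNF1 motif, in 3.35% against 0.647%. The TATA box TATAAA was held by 4.65% against 2.15%. At 50 to 99 in both replicates the AP-1, RUNX, CRX, homeodomain and TATA motifs stood in 2.61%, 1.08%, 2.23%, 0.968% and 3.01%. Median GC content was 52.0% in the weak peaks and 64.7% in the stronger ones, and its part in these differences was not tested.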

How the data were processed

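DNase-seq was done on 2 biological replicates of whole embryos, which form 1 group. The authors called peaks and hotspots for each replicate by itself on the mm10 build, per the labels. The aligner, the caller and its settings were not given in the sources used here. Each deposited peak is 150 bp wide and carries a score, called strength here, from 2 to 149 on chromosomes 1 to 19. Each deposited hotspot carries a −log10 q-value, with 100 for the smallest. The files held 208148 and 229803 peaks, of which 203095 and 223678 on chromosomes 1 to 19 were used after repeated lines were dropped.

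TSSs and exons came from GENCODE M21 and sequences from GRCm38.p6, which has the chromosomes of mm10. Peaks were assigned with Python 3.11.15, numpy 2.4.6 and pandas 2.3.3, and figures drawn with matplotlib 3.10.9. A peak counted for a gene when it lay within 1000 bp of any TSS, and ties in strength went to the peak nearest a TSS. The assignment was tested on simulated peaks of known strength. The members, gene lists, families and motifs were chosen with earlier results of these data known. In each list of up to 6 members all are named, in longer lists the 6 of lowest mean strength. Other rules took the 8 weakest members, the 5 widest gaps between replicates, 3 genes on each side of the limit and up to 4 of the lowest in a family. Other genes, and the tissue given to each of the 258 members, were chosen after their values were seen. The strength cannot be turned into read counts, so no interval from depth is given, and with 1 group no p-value is given. Some genes that these rules take, and 1 sequence, are not reported here.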

Additional observations from a re-analysis of the deposited data

How the results depend on the processing

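The number of weakly open promoters, 544, depended on the limit and on asking for both replicates. It was 243 under a limit of 40 and 969 under 60, and 943 to 1429 when 1 replicate was left out. The weak share of open genes moved from 3.68% to 1.64% under a limit of 40, to 6.55% under a limit of 60 and to between 6.18% and 9.51% with 1 replicate left out. The median CpG ratio of members, 0.264, was 0.306 when measured in the strongest peak and 0.256 to 0.312 with 1 replicate left out. That of the stronger open genes, 0.705, was 0.695 with a 2500 bp window, 0.723 with the 5′-most TSS alone, 0.807 in the strongest peak and 0.704 to 0.713 with 1 replicate left out. The median distance of 93.5 bp was 25 bp with a 500 bp window, 624 bp with a 2500 bp window and 87 to 148 bp with 1 replicate left out. The median of 5 distal peaks became 4 with the 5′-most TSS alone (with members chosen anew or as before), with TSSs of protein-coding transcripts alone and under a limit of 40. The share of members whose strongest peaks overlapped, 78.5%, was 70.4% when 75 bp of overlap was required, and it cannot be computed with 1 replicate. Members were less CpG-rich than stronger open genes under each of these settings. The causes of the movements were not tested beyond what each limit or window sets by construction. Weak shares of single lists and families rest on few genes and often moved by more than 1.5 times. Ranges are given beside the lists and families that held the most members and beside several that held none. No paired analysis was possible because the study has 1 group. Depth is unknown, so absence of a peak does not show a closed promoter.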

Other observations

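Some weakly open promoters stood close to strong distal sites that both replicates shared. The strongest such site within 50 kb of Psmb11, whose own promoter had 47 in both replicates, reached 134 and 142. Near Clec11a, a growth factor gene of blood-forming and bone cells with promoter values of 32 and 41, the strongest distal peak reached 131 and 141. The corresponding values were 126 and 134 for Rbp7 (29 and 44 at the promoter), 123 and 129 for Fgf21 (38 and 40) and 118 and 126 for the endothelial gene Robo4 (35 and 47). These genes were named after their values were seen, and whether a distal site acts on the named gene was not tested.

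Of the 21 genes at 50 or more in replicate 1 and under 50 in replicate 2, 20 were under 70 in replicate 1 and, without Slc26a8, the highest was 63. The case of Slc26a8 shows how a 20 bp difference in where a peak was placed moved a strong site across the 1 kb window. Genes sharing 1 strongest peak in replicate 1 made 6 pairs: Ctla2b and Gm49392, Ctla2a and Gm49391, Zfp934 and Zfp935, Pcdha4 and Gm42416, Cd160 and Pdzk1, and Atp6v0a4 and Tmem213. In replicate 2, 7 peaks were shared, by 14 genes, among them Fgf21 and Fut1. Genes with predicted or clone names numbered 62 (11.4%) among members and 3.77% among stronger open genes.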
